A study of Populus x canadensis with 12 samples.

Results

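Leaves of poplar plants in severe drought were compared with leaves of watered plants. The comparison used 8 of the 12 libraries of the series, chosen by their stage label. There were 4 severe drought plants (stage D2) and 4 watered controls (stage C), and each stage held 2 plants of hybrid 85 and 2 of hybrid 89. All were greenhouse-grown rooted cuttings from a cross of Populus deltoides (L155-079, the female parent) with Populus nigra (71077-2-308, the male parent), known as Populus x canadensis. Plants stood 50 to 70 cm tall when water was withheld from the drought plants, for 8 or 13 days. The labels do not tie these periods to stages. Each library came from the leaves of a single plant, and the clone numbers (3, 4, 6 and 8 in C, and 42, 45, 20 and 35 in D2) all differ. The labels do not say whether clones of a hybrid are copies of 1 genotype. Plant age and harvest day were not used here, so the time that passed cannot be told apart from the lack of water.

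When soil dries, plants make the hormone abscisic acid, close their stomata and so lose carbon gain together with water loss. Growth slows early, photosynthesis falls as drought deepens, and cells accumulate protective proteins and soluble sugars. Old leaves may be dismantled and their nutrients moved out. Poplars are known as water-demanding trees whose leaf transcripts respond to drying over days. The deposited table gives gene IDs without names and no annotation was used here. Genes below are therefore named by ID and described by behaviour, and the leaf label was not checked against marker genes. The number after "Potri." in an ID is its chromosome number. In whole leaves, fewer cells of a type and less RNA per cell cannot be told apart.

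Expression was measured as RPKM, a read count divided by the length of the gene and by the depth of the library. Library totals recovered from the values were 2534325 to 10509089 reads in C and 2259634 to 3931067 in D2. For a gene of the median coding length, 3 reads equal 0.254 RPKM in the deepest of the 8 libraries and 1.18 RPKM in the shallowest, from counting error alone. Changes were measured on log2(RPKM + 1), which understates the change of weakly expressed genes. A gene was called when limma's Benjamini-Hochberg adjusted p was below 0.05. D2 replicate 1 of hybrid 89 stood apart: its log2(RPKM + 1) values correlated with those of the 3 remaining D2 plants at r = 0.851 on average, where the other D2 plants reached 0.896 to 0.909. Results that move most with this plant are also given without it.

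Many genes stood at another level in D2 leaves than in C leaves, with shifts both up and down that were often large. Of 22218 genes tested, 4707 rose and 4095 fell in D2 (limma with hybrid as a covariate, adjusted p below 0.05). That is 39.6% of the tested genes, with 21.2% higher and 18.4% lower. Without D2 replicate 1 of hybrid 89, 4599 rose and 3839 fell, and 4174 and 3666 of these were among the first lists. The median log2 change was 1.47 in the genes that rose and -1.76 in those that fell, against 0.11 over all genes tested. At least 4-fold changes on this scale were found in 1475 rising and 1659 falling genes. At least 16-fold changes were found in 320 and 221, and at least 64-fold changes in 61 and 40. With limma-voom, which adds no pseudocount of this size, the 4-fold counts were 1608 rising and 2548 falling genes, and with 1 RPKM required in all 8 libraries they were 756 and 627, so which direction had more depends on these settings.

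**Figure D1:**
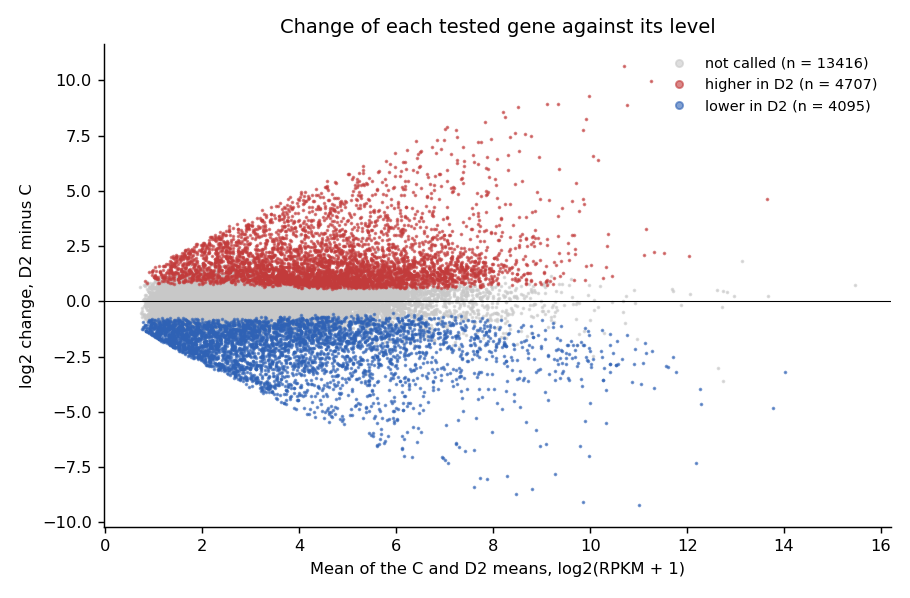
The log2 change of each of the 22218 tested genes (D2 minus C, vertical axis) is plotted against its level, the mean of its C and D2 mean RPKM as log2(RPKM + 1) (horizontal axis). Red points are the 4707 genes called higher, blue points the 4095 called lower and grey points those not called; rises and falls of similar size occur at most levels.

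The values themselves separated the stages in many genes. In 8519 genes, 38.3% of those tested, the 4 D2 values and the 4 C values did not overlap, with D2 above C in 4584 and below C in 3935. Of the 8802 called genes, 7646 were separated in this way. Calls and separation rest on the same values, so this count does not back the calls. A gene could pass the filter of 1 RPKM in 4 libraries through 1 stage alone. This applied to 417 genes that were under 1 RPKM in every C library, of which 415 were called higher, and to 798 under 1 RPKM in every D2 library, of which 785 were called lower. Such genes had to differ in order to be tested, so their counts support nothing.

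The largest rise belonged to Potri.013G101000.1, on chromosome number 13 with a coding length of 990 bp. Its values in C were 1.73 and 0.763 RPKM in hybrid 85 and 0.494 and 1.20 RPKM in hybrid 89, from 26 reads in all C libraries together. In D2 they were 2976 and 2146 RPKM in hybrid 85 and 3820.4 and 4306 RPKM in hybrid 89. All 4 drought plants were thus high and close to each other, with the highest 2.01 times the lowest. The mean went from 1.05 ± 0.54 to 3312 ± 952 RPKM (SD, n = 4), and the gene moved from rank 22182 to rank 22 among all IDs. The log2 change was 10.65 ± 0.29 (SE, limma adjusted p = 1.74e-07).

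The other leading rise behaved less evenly among the drought plants. Potri.008G149200.1 (chromosome number 8, 903 bp) had 3.16 and 0.418 RPKM in C of hybrid 85 and 1.80 and 2.62 RPKM in C of hybrid 89. In D2 it had 1864 and 488 RPKM in hybrid 85, and 11815 and 5341 RPKM in hybrid 89. Every D2 plant was far above every control, yet the D2 values spread over a factor of 24.2, and both plants of hybrid 89 lay above both of hybrid 85. The log2 change of this gene from C to D2 was 9.95 ± 0.64 (SE, limma adjusted p = 6.35e-06). The difference of this change between the hybrids was 2.66 ± 1.01, which did not pass the test (limma adjusted p = 0.284).

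The 2 largest falls belonged to genes that were abundant in watered leaves and close to the floor in drought. Potri.018G025900.1 (chromosome number 18, 366 bp) had 1402 and 8795 RPKM in C of hybrid 85, and 3908 and 2372 RPKM in C of hybrid 89. In D2 it had 3.63 and 5.98 RPKM in hybrid 85, and 3.49 and 5.56 RPKM in hybrid 89, from 3 to 8 reads a library. The controls varied by a factor of 6.27, while the drought plants lay within a factor of 1.71 of each other. It fell from rank 21 to rank 15059, and its log2 change of -9.20 had an SE of 0.50 (limma adjusted p = 2.72e-06).

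Potri.013G141900.1 (chromosome number 13, 633 bp) followed a like course. Its control values were 826 and 3158 RPKM in hybrid 85 and 1856 and 1573 RPKM in hybrid 89. Its D2 values were 1.40 and 2.47 RPKM in hybrid 85 and 1.35 and 3.62 RPKM in hybrid 89, from 2 to 9 reads a library. No drought plant approached any control, and the rank went from 59 to 18494. The log2 change was -9.08 ± 0.40 (SE, limma adjusted p = 1.27e-06). The rule that picked these 4 genes required adjusted p below 0.05, a level of at least 5 RPKM and no overlap of the stages, which 3560 rises and 2510 falls met.

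**Figure D2:**
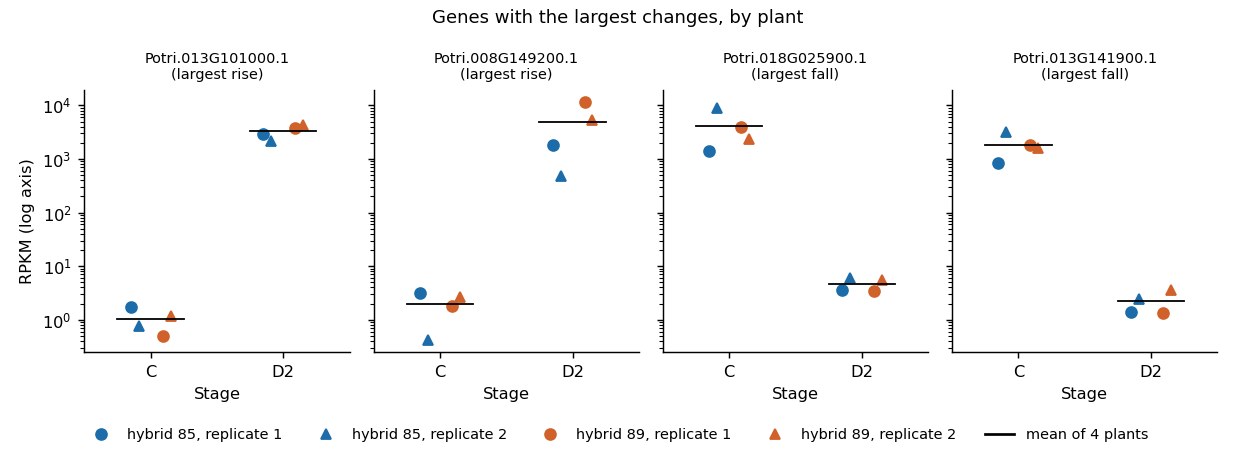
RPKM (log axis) of the 2 genes with the largest rises and the 2 with the largest falls in each of the 8 plants, by stage; colours mark the hybrid, symbols the replicate, and bars the mean of 4 plants. No D2 value comes near a C value in any panel, and the D2 values of Potri.008G149200.1 spread from 488 to 11815 RPKM.

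The most abundant transcripts were largely exchanged. Of the 100 genes with the highest mean RPKM in C, 35 were also among the 100 highest in D2; of the 10 highest, 3 were. Of the top 100 of C, 71 were called lower in D2 and 2 higher, against 18.4% lower and 21.2% higher among all tested genes. Of the top 100 of D2, 56 were called higher and 10 lower, against the same shares. The share of reads taken by the 100 genes chosen in C was 26.6% in watered and 11.1% in drought leaves. For the 100 chosen in D2 it was 14.7% and 17.8%. Without replicate 1 of hybrid 89, 42 of the top 100 and 4 of the top 10 were shared. Genes picked for a high level in a stage tend to be lower elsewhere by choice alone, so these counts are a description.

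The choice was therefore also made in one hybrid and the change read in the other, which shares no library with it. The 100 most abundant genes of watered hybrid 85 had a median log2 change of -3.49 in hybrid 89, where 82 of them were lower by at least 1 on the log2 scale and 2 were higher by as much, against 20.6% lower and 24.7% higher among all tested genes. Without replicate 1 of hybrid 89 that median was -2.29, with 78 lower and 4 higher. The 100 most abundant of watered hybrid 89 had a median of -1.35 in hybrid 85, with 63 lower and 13 higher by at least 1, against 18.9% and 16.8% of all genes. The fall of the transcripts that dominate a watered leaf was thus seen in both hybrids. Genes chosen for their level in drought gave less even values. The top 100 of D2 in hybrid 89 had a median of 2.33 in hybrid 85, where 91 were above their controls, against 48.8% of all genes. The top 100 of D2 in hybrid 85 had a median of 0.39 in hybrid 89, where 52 were above, near the 57.2% of all genes. Without replicate 1 of hybrid 89 these medians were 1.67 and 0.92, and 85 and 61 genes were above.

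Single leading transcripts show both courses. The most abundant transcript of both stages, Potri.001G400100.1 (chromosome number 1, 201 bp), stood at 34701 ± 13457 RPKM in C and 55882 ± 13119.5 RPKM in D2 (SD, n = 4). The values overlapped between stages and the change did not pass the test (log2 change 0.74 ± 1.15 SE, limma adjusted p = 0.641). Its neighbour by ID, Potri.001G400200.1, has the same coding length and held rank 4 in C and rank 3 in D2, at 11982 ± 4055 and 14175 ± 4904 RPKM (log2 change 0.24 ± 0.74 SE, limma adjusted p = 0.819). How reads shared by near-identical copies were counted is not given in the sources used here, so the split of reads between such neighbours is uncertain. Potri.005G239300.1, at rank 5 in C, was not called (log2 change -3.60 ± 1.31 SE, limma adjusted p = 0.0528). It averaged 10665 RPKM in C. In D2 it had 5308 and 5495 RPKM in hybrid 85 but 20.4 and 908 RPKM in hybrid 89. Potri.006G085200.1, at rank 4 in D2, was not called either (log2 change 1.81 ± 0.65 SE, limma adjusted p = 0.051).

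By contrast, the second and the third most abundant transcripts of watered leaves fell. The second, 546 bp long and on chromosome number 17, held 27752, 29170, 27503 and 28628 RPKM in the 4 controls, within a factor of 1.06. In D2 it held 9430 and 5507 RPKM in hybrid 85, and 377 and 4789 RPKM in hybrid 89 (log2 change -3.18 ± 0.94 SE, limma adjusted p = 0.0225). No drought plant reached the controls, and the lowest was replicate 1 of hybrid 89. The call ended without either C replicate of hybrid 89 (limma adjusted p = 0.0637 and 0.0623), without D2 replicate 2 of hybrid 85 (limma adjusted p = 0.0564) and with no filter on low values (limma adjusted p = 0.0987). Without replicate 1 of hybrid 89 its log2 change was -2.21 (limma adjusted p = 0.00207). The third, 561 bp long and on chromosome number 4, averaged 26216 ± 3953 RPKM in C and 1666 ± 1122 RPKM in D2 (SD, n = 4). It had 20964, 28104, 25656 and 30142 RPKM in the controls, and 2672 and 2123 RPKM in D2 of hybrid 85 but 72.9 and 1798 RPKM in hybrid 89. The stages did not overlap, and the log2 change was -4.80 with an SE of 0.999 (limma adjusted p = 0.00402). A transcript of 288 bp on chromosome number 11 rose from rank 80 to rank 2. It had 824, 189, 1877 and 2918 RPKM in the controls and 29463, 17415, 23536 and 25767 RPKM in D2 (log2 change 4.62 ± 0.72 SE, limma adjusted p = 0.000821). Here too the drought plants lay above all controls and close to each other. Without replicate 1 of hybrid 89 the log2 changes of the last 2 transcripts were -3.59 and 4.89 (limma adjusted p = 5.82e-05 and 0.000214).

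In the plants sampled, 50% of the reads lay in more genes in D2 than in C. In C, 657 and 682 genes of hybrid 85 and 490 and 407 genes of hybrid 89 held 50% of the reads. In D2 the numbers were 825 and 883 in hybrid 85 and 813 and 1050 in hybrid 89. Every drought plant thus lay above every control, and the means were 559 ± 132 and 893 ± 109 genes (SD, n = 4). The two-sided exact permutation test gave p = 0.0286, the smallest that 4 against 4 can give, with adjusted p = 0.0571 over the 4 library values tested, so the difference did not pass the correction. With reads thinned to the shallowest library the means were 558.5 and 891.5. The number of genes holding 90% of the reads was 7516 ± 595 in C and 7502.5 ± 322 in D2 (SD, n = 4, exact permutation p = 1). Genes at or above 1 RPKM numbered 21238 to 22771 in C and 20689 to 21384 in D2, with overlap (exact permutation p = 0.0857, adjusted p = 0.114). The groups were thus apart for the most read genes and overlapped in the 2 values that describe the many weakly read ones. The share of reads in the 100 most read genes of each library was 25.7 to 32.3% in C and 19.1 to 23.1% in D2 (exact permutation p = 0.0286, adjusted p = 0.0571).

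**Figure D3:**
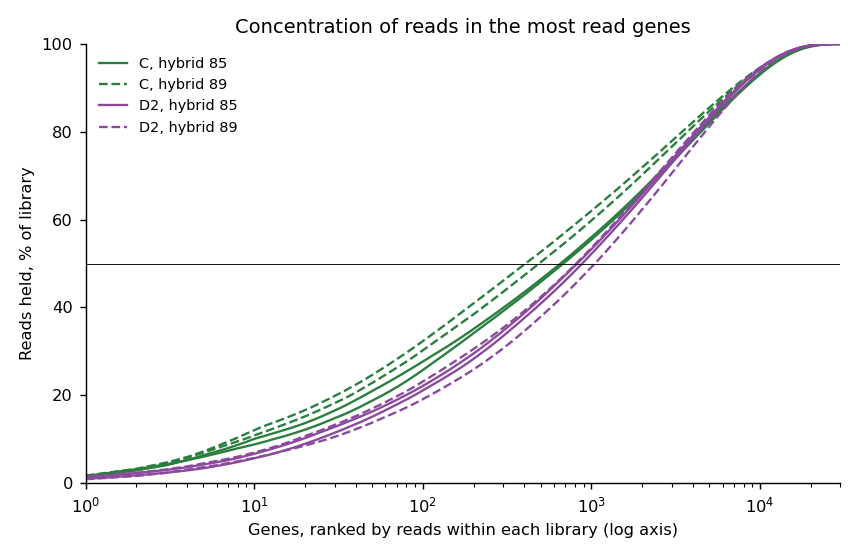
Share of a library's reads (vertical axis, %) held by its most read genes, ranked within each of the 8 libraries (horizontal axis, log). C is green and D2 purple, hybrid 85 solid and hybrid 89 dashed; the line at 50% is crossed at 407 to 682 genes in C and at 813 to 1050 in D2.

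The called genes account for most of the reads in either stage. Among control plants the genes that rose held 11.5 to 13.5% of all reads. Under drought they held 42.5 and 39.8% in hybrid 85 and 58.7 and 44.6% in hybrid 89. The genes that fell held 43.1 to 48.5% among controls, and under drought 12.9 and 12.5% in hybrid 85 and 4.28 and 10.3% in hybrid 89. Genes with no call kept 39.6 to 42.8% in C and 36.1 to 47.3% in D2. The same values chose these classes, so the shares show only how much of the RNA the changes involve. Replicate 1 of hybrid 89 lay furthest from the controls in both. Since RPKM values are shares of a library, a loss of reads in some genes raises the values of the rest. Scaled by median ratios, 3905 genes rose and 4729 fell, with a median log2 change of -0.03 over all genes in place of 0.11. These include all of the 4095 falls above and 3905 of the 4707 rises. With quantile normalization, 4228 rose and 4424 fell.

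Some genes went from near silence to strong expression, or the reverse. Under 1 RPKM in every control, 211 genes reached a mean of at least 10 RPKM in D2 and 23 a mean of at least 100 RPKM. In the other direction, 204 genes under 1 RPKM in every drought plant had at least 10 RPKM on average in C and 15 at least 100 RPKM. A stricter demand, that every plant of the other stage reach 10 RPKM, left 76 and 77 genes. At 100 RPKM in every plant it left 5 and 1, and no gene went from under 1 RPKM to a mean of 1000 RPKM or back. The rises rest in part on replicate 1 of hybrid 89: without it, 149 genes rose from this floor to a mean of at least 10 RPKM and 15 to at least 100 RPKM, while 220 and 17 fell to it. By reads, 69 genes reached 10 reads or more in every drought plant while the controls together had 3 or fewer, and 217 showed the reverse. The controls were deeper: with reads thinned to the shallowest library the counts were 131 and 181.

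Strongly changed genes moved in the same direction in both hybrids. The 500 genes with the largest rises in hybrid 85 had a median log2 change of 4.00 there and of 4.49 in hybrid 89. Plants of hybrid 89 took no part in the ranking, but they did in the filter on low values. Filtered on hybrid 85 alone, the medians were 4.02 and 4.48, and with 1 RPKM required in all 8 libraries the median in hybrid 89 was 3.23. In hybrid 89, 493 of the first 500 were higher in D2 and 491 by at least 1 on the log2 scale, a size that 24.7% of all tested genes reached. Of the 500 largest falls of hybrid 85, 496 were lower in hybrid 89 and 492 by at least 1, against 20.6% of all genes. Their medians were -3.80 and -3.84. All of the 100 largest rises and the 100 largest falls of hybrid 85 moved the same way by at least 2 on the log2 scale in hybrid 89. The share of all tested genes that reached this size was not counted.

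The choice was also made the other way round. The 500 largest rises of hybrid 89 had a median of 4.94 there and 3.60 in hybrid 85, where 494 were higher in D2, against 48.8% of all genes. The 500 largest falls had medians of -4.42 and -3.22, and 499 were lower in hybrid 85, against 51.1%. Of the 100 largest rises of hybrid 89, 100 rose by at least 2 on the log2 scale in hybrid 85. Of its 100 largest falls, 96 fell by as much there. Filtered on hybrid 89 alone, the medians in hybrid 85 were 3.56 and -3.22. For rises the medians were further from 0 in hybrid 89 than in hybrid 85 with either choice. This also held without replicate 1 of hybrid 89 (4.28 against 4.00, and 4.68 against 3.61). Rises chosen in hybrid 89 favour that hybrid by choice. Over all tested genes the median log2 change was 0.22 in hybrid 89 and -0.03 in hybrid 85. Whether this offset accounts for the order of the medians was not tested. For falls chosen in hybrid 85 the order rested on replicate 1 of hybrid 89. Without that plant, their medians were -3.80 in hybrid 85 and -3.65 in hybrid 89. Across the tested genes the changes of the hybrids correlated at r = 0.80, a description across genes, which share libraries. With either D2 plant of hybrid 89 alone, r was 0.75 for replicate 1 and 0.80 for replicate 2. Among genes called within both hybrids, 2034 rose in both, 1846 fell in both and 18 went in opposite directions (limma, 2 plants a group).

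**Figure D4:**
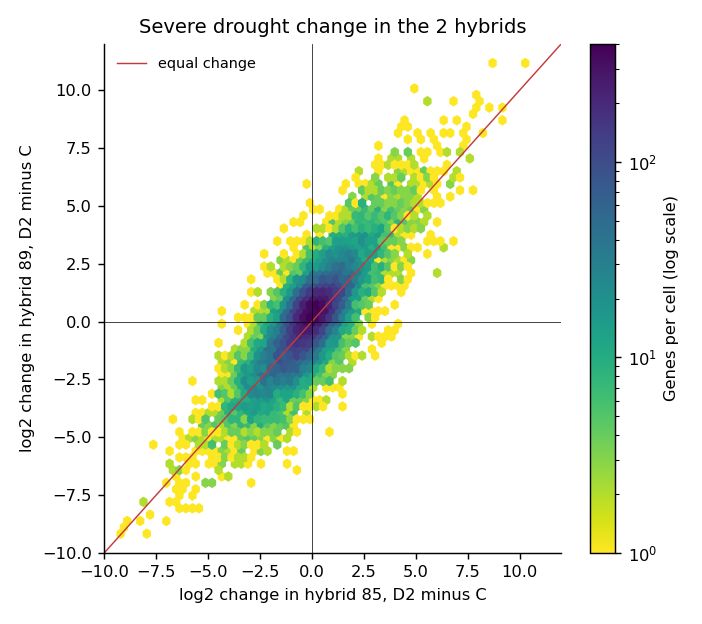
Log2 change (D2 minus C) of each tested gene in hybrid 85 (horizontal axis) and hybrid 89 (vertical axis); colour gives the number of genes per cell on a log scale and the red line marks equal change. Genes lie along the line (r = 0.80 across genes), and many of the strong rises lie above it.

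The plants were also placed along the drought change of the other hybrid. A value of 0 is the mean of a plant's own controls and a value of 1 is the full change of the other hybrid, over all tested genes. The drought plants of hybrid 85 stood at 0.68 and 0.63 of the change of hybrid 89. The plants of hybrid 89 stood at 1.05 (replicate 1) and 0.89 (replicate 2) of the change of hybrid 85. Controls lay between -0.03 and 0.03, and by construction average to 0. Measured against replicate 2 of hybrid 89 alone, the plants of hybrid 85 stood at 0.75 and 0.69, and against replicate 1 alone at 0.56 and 0.52. All 4 drought plants thus lay well away from the controls along the change of the other hybrid. The axes differ in size, with an SD of the change across genes of 1.42 in hybrid 85 and 1.73 in hybrid 89. Positions therefore cannot be compared between the hybrids. The labels state that leaf water content differed between plants, without values, so its part was not tested.

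**Figure D5:**
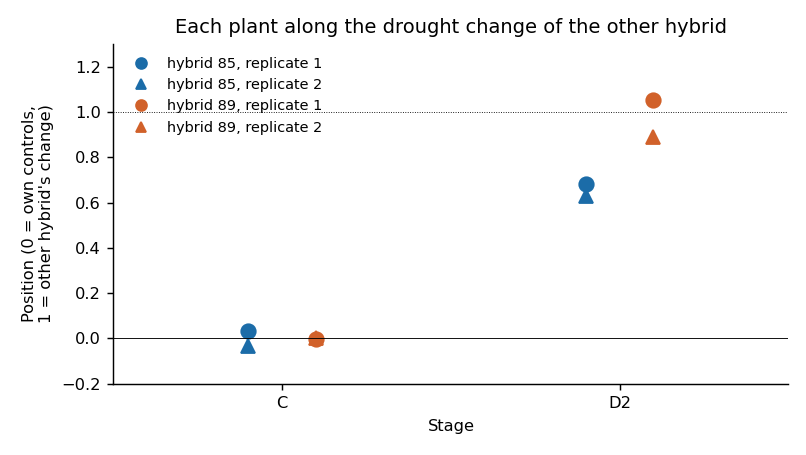
Position of each plant along the drought change of the other hybrid (vertical axis, no unit; 0 is the mean of its own controls and 1 the other hybrid's full change), by stage; colours mark the hybrid and symbols the replicate. D2 plants lie at 0.63 to 1.05, and controls between -0.03 and 0.03.

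Drought plants of hybrid 89 differed from each other more than any other pair. With reads thinned to equal depth, 26.1% of 7729 well-read genes differed at least 2-fold between the 2 D2 plants of hybrid 89. The figure was 6.08% for D2 of hybrid 85, 11.0% for C of hybrid 85 and 4.94% for C of hybrid 89. A well-read gene had a mean of at least 50 thinned reads. Of the 500 largest rises chosen in hybrid 85, 328 were higher in replicate 1 of D2 of hybrid 89 than in replicate 2 (median log2 changes 4.70 and 4.28). Of the 500 largest falls, 296 were lower in replicate 1 (-3.98 and -3.65). In hybrid 85, replicate 1 was the higher plant in 410 of the 500 rises chosen in hybrid 89 (3.93 and 3.20), and the lower in 214 of the falls (-3.23 and -3.22). These counts are a description, as the share over all tested genes was not counted. They do not show what sets the 2 drought plants of hybrid 89 apart. By the medians, the hybrid 89 plant that stood apart was further from the controls in rises and falls. In hybrid 85 the plants differed in the rises and had like medians in the falls.

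A test of the difference in drought change between the hybrids called no gene. limma with 4 groups of 2 plants called 0 of 22218 genes (0%), with 3263 at unadjusted p below 0.05, and limma-voom on recovered reads also called 0. The smallest adjusted p was 0.061, shared by the 3 genes below. With 2 plants a group, equal responses do not follow from this. The count became 113 with the D1 libraries in the fit, and 1595 without D2 replicate 2 of hybrid 89, which leaves the plant that stood apart as the only one of its group. It was 1 without C replicate 2 of hybrid 85.

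The 3 genes with the smallest p-values had log2 changes of opposite sign in the hybrids. Potri.015G074500.1 (chromosome number 15, 537 bp) had 10.8 and 13.4 RPKM in C and 9.07 and 6.98 in D2 of hybrid 85, but 4.85 and 6.61 in C and 159 and 94.7 in D2 of hybrid 89. It was thus raised in both drought plants of hybrid 89 and in neither of hybrid 85. In hybrid 85 its log2 change was small, at -0.54, with 11 and 12 reads in D2. Potri.003G134500.1 (chromosome number 3, 1170 bp) had 4.88 and 2.58 RPKM in C and 14.4 and 11.5 in D2 of hybrid 85, but 9.19 and 8.43 in C and 0 and 0.217 in D2 of hybrid 89. Its D2 values in hybrid 89 rest on 0 reads and 1 read. Potri.003G153200.1 (chromosome number 3, 246 bp) had 6.96 and 6.14 RPKM in C of hybrid 85, from 18 and 4 reads, and no reads in D2. The opposite held in hybrid 89, with no reads in C and 1.73 and 3.10 RPKM, from 1 and 3 reads, in D2. This gene passed the filter only through the libraries where it was high, so its pattern supports nothing. The differences in log2 change (hybrid 89 minus hybrid 85) were 4.75 ± 0.50, -4.75 ± 0.54 and 4.66 ± 0.53 (SE, limma adjusted p = 0.061 for each). None passed the threshold.

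Genes with consecutive ID numbers, which follow the order along a chromosome, changed together somewhat more often than others. In 12893 such pairs with both genes tested, 21.6% of the second genes were called higher. After a first gene that was called higher, the share was 29.3%. For falls the shares were 18.3% in all pairs and 26.4% after a falling gene. Neighbours of strongly raised genes stood out more: after a gene raised at least 16-fold, 31 of 166 second genes (18.7%) rose at least 4-fold, against 6.49% of all pairs. After a gene lowered at least 16-fold, 22 of 117 (18.8%) fell at least 4-fold, against 7.34%. These shares are a description, and near-identical neighbours that share reads were not set apart.

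Runs of neighbours called in 1 direction were short. At least 4 in a row were called higher in 36 places and lower in 20. The longest run of rises held 5 genes, and there were 7 of this length. The longest run of falls held 8 genes, on chromosome number 17, with log2 changes of -3.39 to -2.04. Called genes were otherwise spread over the genome. The share called higher ranged from 17.7% of the tested genes (chromosome number 16) to 23.7% (chromosome number 8), and the share called lower from 15.3% (chromosome number 18) to 24.2% (chromosome number 16). Chromosome number 16 was thus the lowest for rises and the highest for falls. Its median log2 change was -0.04, against 0.11 over all genes.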

How the data were processed

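Total RNA from leaves of 12 single plants was made into TruSeq RNA-seq libraries, per the labels' protocols. The authors deposited RPKM for each gene ID and library, per the file headers. The submitters' processing notes list Trimmomatic 0.32. No aligner, counting tool, strand setting, genome build or annotation is given in the sources used here. The 3 columns of stage means were not used. Whole reads, totals and coding lengths were recovered from the 41335 IDs: 100.0% of values above 0 were whole within 0.01 reads, and the reads summed, in the library where the match was poorest, to 99.99% of the total. Groups and columns were matched by hybrid and clone number.

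Genes reaching 1 RPKM in 4 or more of the 8 libraries were tested on log2(RPKM + 1) with limma 3.58.1 in R 4.3.3, with stage and hybrid as terms, trended variance and Benjamini-Hochberg adjustment over all tested genes. The hybrid difference used 4 groups. The fit was also run on simulated reads with few changed genes and the same spread for all genes. These data differ in both, so that run does not bear on the calls here. Single library values were tested by exact permutation (scipy 1.17.1). Named genes are the 2 largest rises and falls, the 3 smallest p-values for the hybrid difference and, without IDs where called, the most abundant transcripts. The gene lists that had been drawn up by product name could not be matched to IDs and were left out. Comparisons, rules and lists were chosen with earlier results of these data known. Chi-square per degree of freedom between replicates was 8.53 to 35.4, so no library looked deposited more than once. p-values measure the spread between plants. Among the alternatives were pseudocounts of 0.1 and 0.5, other filters, quantile and median-ratio scaling, all 12 libraries, limma-voom on the recovered reads with median-ratio library sizes, a replicate block and the omission of each library in turn. Thinned reads, filters on the choosing hybrid alone and lists rebuilt without D2 replicate 1 of hybrid 89 were chosen after seeing the data.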

Additional observations from a re-analysis of the deposited data

Results flagged for a closer look

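The third most abundant transcript of watered leaves, 561 bp long, had a log2(RPKM + 1) of 6.207 in D2 replicate 1 of hybrid 89, against 10.81 to 11.38 in the other D2 plants. This was the only one of 40 sets of 4 plants in which a plant lay so far from the rest. Chance alone gives about 1 in 20, so 1 such set among 40 is no more than chance gives.

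Potri.015G074500.1, Potri.003G153200.1 and Potri.003G134500.1 had log2 changes of opposite sign in the 2 hybrids, without overlap of the stages in either. The fall of the first in hybrid 85 was small (log2 change -0.54). The second passed the filter only through the libraries where it was high. The differences in log2 change were 4.753, 4.658 and -4.745, and none passed the test over all genes (limma adjusted p = 0.061 for each). Over the alternatives the adjusted p ranged from 0.00229 to 0.43 for the first, 0.00601 to 0.43 for the second and 0.00465 to 0.43 for the last. The lowest values come from the fit without D2 replicate 2 of hybrid 89, where the plant that stood apart is the only one of its group. The remaining alternatives gave 0.00886 or more for the first and the last, with all 12 libraries, and 0.0516 or more for the second.

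Potri.013G101000.1 also lay above every control in the 4 moderate drought plants, which the comparison does not include, with a mean of 138.3 RPKM and a range of 48.9 to 260 RPKM.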

How the results depend on the processing

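Rises numbered 3526 to 5219 over the 20 alternatives and falls 2154 to 4729; no gene called in the comparison was called in the opposite direction in any of them. With at least 1 RPKM in all 8 libraries, which leaves 15565 genes to test and drops those near 0 in a stage, 2154 genes fell. Leaving out 1 library in turn, 3526 to 4599 rose and 3257 to 4162 fell. The hybrid difference was called in 113 genes with all 12 libraries and in 0 to 1595 with 1 library left out. The replicate numbers do not pair the plants: deviations of same-numbered plants correlated at -0.03 in hybrid 85 and 0.03 in hybrid 89. With the numbers as a replicate block, 4010 rose and 3703 fell, of which 3963 and 3642 were among the first lists.

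Genes read in D2 and hardly in C were 131 with thinned reads, an alternative that removes the greater depth of the controls, and 74 to 160 with 1 library left out (160 without C replicate 1 of hybrid 85, the deepest). The reverse set held 181 and 221 to 356 (356 without C replicate 2 and 326 without D2 replicate 2 of hybrid 89). The difference in genes holding 90% of reads was -13.75, 1 with thinned reads, a setting added after seeing the data, and -222.5 to 186.5 with 1 library left out. For genes holding 50% of reads it was 281 to 375, and for the share of reads in the top 100 of each library -8.71 to -6.52 percentage points; with 1 library left out no such test can pass. With 1 library left out, 2 abundant transcripts with no call changed sign: Potri.001G400200.1 ranged from -0.012 (without C replicate 2 of hybrid 85, and -0.0096 without D2 replicate 1) to 0.48, and Potri.010G236500.1 from -0.046 (without D2 replicate 1 of hybrid 85) to 0.45 on the log2 scale. The cause was not tested. The 4 genes with the largest changes kept their sign and call under every alternative that included them, with limma adjusted p of at most 0.00012. Medians of the 500 genes chosen in the other hybrid kept their sign, at 2.45 to 5.97 for rises and -5.28 to -2.08 for falls. The median tested gene had 22 to 117 reads by library, which limits small changes of weakly expressed genes.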
